A study of Mus musculus with 2 samples.

Results

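The 10 Notch pathway genes described here are the receptors Notch1, Notch2, Notch3 and Notch4, the ligands Dll1, Dll4, Jag1 and Jag2, the nuclear factor Rbpj and the target gene Hes1. They were chosen by symbol, and each of the 10 matched 1 of the 43346 Ensembl genes in the deposited tables. Total RNA was sequenced from spleens of newborn mice of the strain labelled B6NCrl, at postnatal day 0, with no treatment or genetic change named. The only group holds 2 libraries, replicate 1 from pup 2 and replicate 2 from pup 1, each made from 1 spleen, and both pups came from the same pregnancy. The pups' sex was not collected, and both samples carry the same donor identifier although their labels name separate pups. With no second condition and 1 library per pup, the comparisons are between genes and between the littermates, no p-value is given, and each SD covers 2 littermates only.

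Notch receptors are surface proteins that are switched on by Delta-like or Jagged ligands on a neighbouring cell. Ligand binding opens the receptor to cleavage, first by the protease ADAM10 and then by gamma-secretase, and the freed intracellular domain enters the nucleus, binds RBPJ with a Mastermind-like coactivator and turns on target genes such as those of the Hes and Hey families. In the mouse spleen, Notch2 and its ligand Dll1 are known for their requirement in marginal zone B cells, and Notch2 also for a subset of conventional dendritic cells. In blood vessels, Notch4, Dll4 and Jag1 are known from endothelial cells and Notch3 from the smooth muscle cells and pericytes around them.

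The libraries held 33122187 estimated counts in replicate 1 and 32162543 in replicate 2. All 8 genes of a spleen patterning list were at 1 TPM (transcript level per length, as a share of its library) or more in both libraries, among them the spleen mesenchyme factors Tcf21 at 113.87 and 135.45 TPM and Tlx1 at 15.51 and 24.05 TPM in replicates 1 and 2. Genes of the pancreas, which lies beside the spleen, were detected too. The 14 acinar genes listed summed to 1077 TPM in replicate 1 and 411 TPM in replicate 2, led by the digestive enzyme genes Ctrb1 and Clps, while the acinar regulator Ptf1a had 7 and 0 counts and the lipase gene Pnlip 5 and 0. Because whole spleens were sequenced, fewer cells of a type and less RNA per cell cannot be told apart in any value below.

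Newborn spleen RNA held 9 of the 10 Notch genes at 1 TPM or more in both libraries, and only Jag2 was below that level. For comparison, 31.0% of all 43346 genes and 55.6% of 21474 protein-coding genes reached 1 TPM in both. These shares also stand beside every count of listed genes at 1 TPM or more given here. The 10 genes summed to 62.4 TPM in replicate 1 and 69.5 TPM in replicate 2, a mean of 65.9 ± 5.06 (SD, n = 2). Hes1 had the highest level, followed by Notch2, Rbpj, Notch1 and Jag1. Dll1, Notch4, Notch3 and Dll4 lay lower, between 1.91 and 3.72 TPM in every library, and Jag2 came last. The steps from Hes1 to Notch2, from Notch2 to Rbpj, from Rbpj to Notch1, from Jag1 to Dll1 and from Dll4 to Jag2 were larger than the spread between the littermates. By the posterior mean TPM that the authors also gave, the step from Rbpj to Notch1 did not hold. On that measure Rbpj stood at 8.23 and 9.19 and Notch1 at 6.97 and 9.31 in replicates 1 and 2. Notch1 and Jag1 overlapped in range, as did Notch3 and Dll4. Notch4 overlapped Dll1, Notch3 and Dll4 in range, and the places of these 4 genes changed between libraries.

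**Figure D1:**
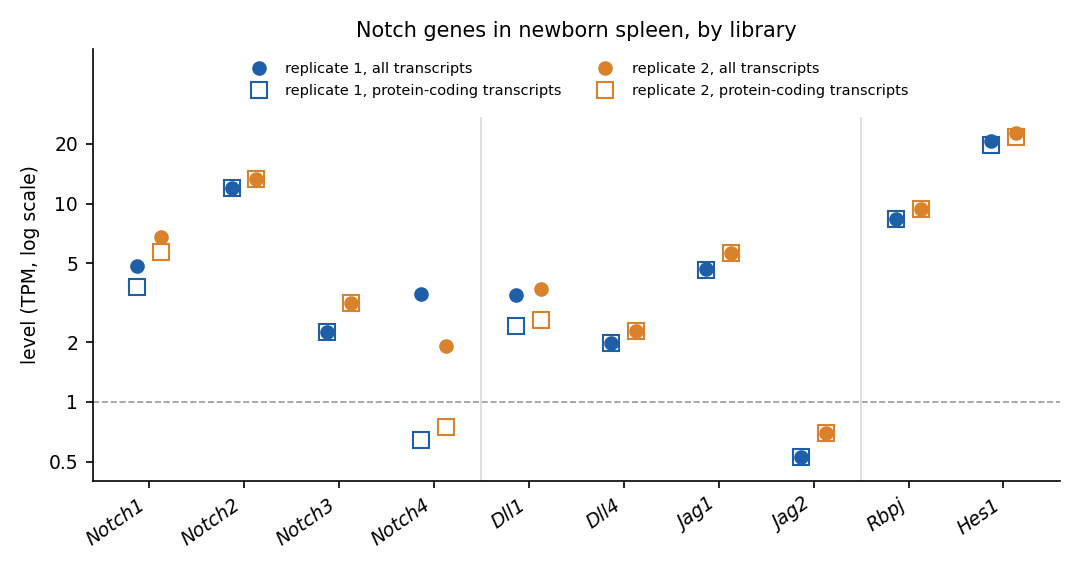
Level of each of the 10 Notch genes in TPM on a log axis, grouped from left to right into receptors, ligands, and nuclear factor and target. Filled circles are the deposited gene level and open squares the sum over protein-coding transcripts, for replicate 1 (blue, left) and replicate 2 (orange, right), with a dashed line at 1 TPM. Circles and squares coincide for Notch2, Notch3, Dll4 and Jag2 and lie far apart for Notch4, at 3.49 and 1.91 TPM against 0.64 and 0.75 TPM.

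Among the receptors, Notch2 held more than the other receptor genes put together. Notch2 (ENSMUSG00000027878, chromosome 3, plus strand, 98013527 to 98150361, GRCm38) stood at 11.94 TPM in replicate 1 and 13.29 TPM in replicate 2, from 3916 and 4113 counts. Its share of the summed receptor TPM was 52.9% in replicate 1 and 52.9% in replicate 2, although by the authors' posterior mean TPM the mean share was 45.7%, below that of the other receptor genes together. The libraries were close for Notch2, with a ratio of scaled counts, replicate 1 over replicate 2, of 0.990 (95% Clopper-Pearson interval 0.948 to 1.03, which covers counting error only). Its single annotated transcript, Notch2-201, carried the whole level.

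Notch1, the receptor required for T cell commitment in the thymus, was the receptor with the next highest level and, in scaled counts, the gene of the 10 that differed most between the littermates. Notch1 (ENSMUSG00000026923, chromosome 2, minus strand, 26457903 to 26516663) stood at 4.87 TPM in replicate 1 and 6.76 TPM in replicate 2, from 1179.49 and 1645.75 estimated counts. Replicate 1 was thus the lower library, and Notch1 made up 21.6% of the receptor sum there and 26.9% in replicate 2. The ratio was 0.745 (0.691 to 0.803), a log2 difference of -0.42, which was larger in size than that of 85.6% of the 15506 genes compared, those whose count averaged 20 or more. Notch2 exceeded Notch1 by 2.45-fold in replicate 1 and by 1.97-fold in replicate 2.

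Notch3, the receptor known from vascular smooth muscle, was also lower in replicate 1. Notch3 (ENSMUSG00000038146, chromosome 17, minus strand, 32120820 to 32166852) stood at 2.25 TPM in replicate 1 and 3.14 TPM in replicate 2, from 564.47 and 741.55 estimated counts. The ratio was 0.791 (0.707 to 0.883), a log2 difference of -0.34. The smooth muscle and pericyte list was split, with 5 of its 9 genes higher and 4 lower in replicate 1 and a median log2 ratio of 0.15. The 9 genes summed to 413 TPM in replicate 1 and 335 TPM in replicate 2, most of it Acta2, the smooth muscle actin gene, at 273.36 and 200.82 TPM. The 4 lower in replicate 1 were Pdgfrb, the pericyte growth factor receptor, at 12.72 and 17.35 TPM, and Rgs5, Cspg4 and Des, with log2 ratios of -0.14, -0.16 and -0.06.

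Notch4, the endothelial receptor, gave nearly the same number of counts in both libraries but a different level. Notch4 (ENSMUSG00000015468, chromosome 17, plus strand, 34564268 to 34588503) drew 163 counts from replicate 1 and 165 from replicate 2, a scaled ratio of 1.03 (0.823 to 1.28). Its deposited level was 3.49 TPM in replicate 1 and 1.91 TPM in replicate 2, a ratio of 1.83, and its share of the receptor sum was 15.5% and 7.61%. Between the same libraries the effective length that turns counts into TPM was 1482.01 nt in replicate 1 and 2911.70 nt in replicate 2. This length is an average over the gene's transcripts, weighted by their estimated abundance, and the transcript tables show which ones set it.

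Of 12 annotated Notch4 transcripts, 8 had any count. The protein-coding Notch4-201, 6591 nt long with 30 exons, held 131.27 counts in replicate 1 and 144.21 in replicate 2, or 80.5% and 87.4% of the gene's counts. On rounded counts the 95% Clopper-Pearson intervals of these shares were 73.4% to 86.2% and 81.2% to 91.9%, which overlap. Per length, however, Notch4-201 stood at only 0.64 TPM in replicate 1 and 0.75 TPM in replicate 2, or 18.4% and 39.3% of the gene's TPM. The remaining 31.72 counts in replicate 1 and 20.79 in replicate 2 lay on transcripts not annotated as protein-coding, and they amounted to 2.84 TPM and 1.16 TPM.

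The highest Notch4 transcript by mean TPM was Notch4-203, a processed transcript of 356 nt, with 11.85 counts in replicate 1 and none in replicate 2. These few counts amounted to 1.46 TPM, or 42.0% of the gene's level in replicate 1. The retained-intron transcript Notch4-209, 352 nt long, likewise had 5.40 counts and 0.68 TPM in replicate 1 and none in replicate 2. In replicate 2 the retained-intron transcript Notch4-206, 642 nt long, had 8.39 counts and 0.52 TPM, against 1.34 counts and 0.08 TPM in replicate 1. The authors' posterior SD for Notch4-203 was 2.25 counts in replicate 1 and 1.2 in replicate 2. A read inside its exons, all of which lie within exons of Notch4-201, cannot tell the 2 transcripts apart unless it crosses their differing junction, and reads over junctions were not analysed here. The junctions that set the 3 transcripts apart are given from the GENCODE M21 transcripts with 30 nt on either side, in lower case before and in capitals after the junction, on the plus strand of chromosome 17 of GRCm38 (mm10). Notch4-201 joins exon 1 to exon 2, Notch4-203 joins exon 1 to exon 3 and so leaves out the 82 nt of exon 2 (34565301 to 34565382), and Notch4-209 reads from intron 1 into exon 2 without a splice; all bases shown are coding sequence or intron of Notch4-201.
Notch4-201: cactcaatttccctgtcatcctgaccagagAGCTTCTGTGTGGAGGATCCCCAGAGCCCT
Notch4-203: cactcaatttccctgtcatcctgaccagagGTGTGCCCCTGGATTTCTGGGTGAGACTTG
Notch4-209: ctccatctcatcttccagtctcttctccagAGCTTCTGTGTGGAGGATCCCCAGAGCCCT

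**Figure D2:**
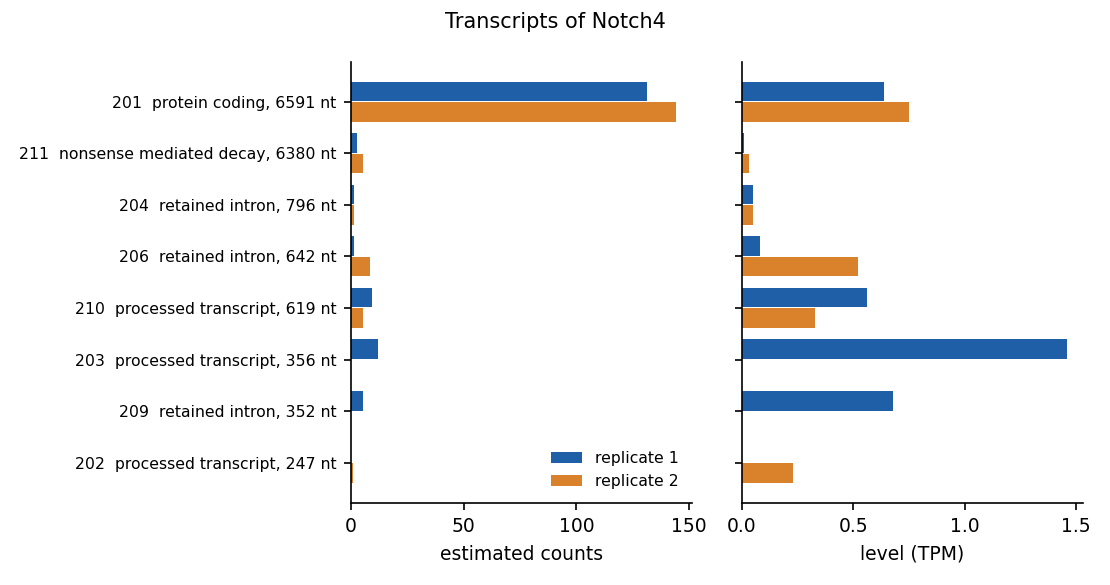
The 8 Notch4 transcripts with any count, longest at the top, in replicate 1 (blue, upper bar) and replicate 2 (orange, lower bar): estimated counts on the left and TPM on the right, both axes from 0. Notch4-201 has the longest bars by counts in both libraries, at 131.27 and 144.21, while by TPM Notch4-203 has the longest bar in replicate 1, at 1.46, and none in replicate 2.

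Counted over protein-coding transcripts alone, a measure chosen after these values were seen, the receptors kept 1 order in both libraries: Notch2, Notch1, Notch3, Notch4. Notch2 then made up 64.1% of the receptor sum in replicate 1 and 58.1% in replicate 2, Notch1 20.4% and 24.8%, Notch3 12.1% and 13.7%, and Notch4 3.44% and 3.28%. Notch4 was below 1 TPM on this measure in both libraries. Notch1 was the other receptor whose gene level held noncoding transcripts: its coding level was 3.8 TPM in replicate 1 and 5.68 TPM in replicate 2, and Notch1-205, a retained-intron transcript, had 48.62 and 52.45 counts. Notch1-201 carried 95.3% and 96.4% of the Notch1 counts.

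Among the ligands, Jag1 was the highest and Jag2 the lowest in both libraries, with Dll1 and Dll4 between them. The 4 ligands summed to 10.7 TPM in replicate 1 and 12.4 TPM in replicate 2, against receptor sums of 22.5 and 25.1 TPM, so that receptors exceeded ligands by 2.12-fold and 2.03-fold. Jag1 (ENSMUSG00000027276, chromosome 2, minus strand, 137081456 to 137116644), a ligand of arterial endothelium among other cells, stood at 4.69 TPM in replicate 1 and 5.66 TPM in replicate 2, from 803 and 924 counts. It made up 44.0% of the ligand sum in replicate 1 and 45.8% in replicate 2. Its ratio was 0.904 (0.821 to 0.995), with the upper end of the interval just under 1.

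Dll1 (ENSMUSG00000014773, chromosome 17, minus strand, 15367354 to 15376872), the ligand that fibroblastic stroma of the spleen presents to Notch2 on B cells, stood at 3.47 TPM in replicate 1 and 3.72 TPM in replicate 2, from 285.91 and 288.87 estimated counts. The ratio was 1.03 (0.871 to 1.22), so the littermates were not separable at this depth. The coding transcript Dll1-201 held 92.3% of the counts in each library but 69.4% of the TPM, and the retained-intron transcript Dll1-204, 751 nt long, held 20.22 and 22.11 counts and 0.98 and 1.14 TPM. Here, unlike in Notch4, the short transcript took a like share in both libraries.

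Dll4 (ENSMUSG00000027314, chromosome 2, plus strand, 119325784 to 119335962), the ligand of arterial and sprouting endothelium and of thymic epithelium, stood at 1.97 TPM in replicate 1 and 2.29 TPM in replicate 2, from 227 and 248 counts. Jag1 exceeded it by 2.38-fold in replicate 1 and by 2.47-fold in replicate 2. Jag2 (ENSMUSG00000002799, chromosome 12, minus strand, 112907819 to 112929776), a Jagged ligand best known from epithelia and the limb, had 66 counts and 0.53 TPM in replicate 1 and 82 counts and 0.70 TPM in replicate 2. Jag1 exceeded Jag2 by 8.85-fold and 8.09-fold. The interval of the Jag2 ratio, 0.837 (0.596 to 1.17), was the widest of the 10, since it had the fewest counts.

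Rbpj and Hes1 were the nuclear members, and both were close between the littermates. Rbpj (ENSMUSG00000039191, chromosome 5, plus strand, 53466152 to 53657362), the DNA-binding partner of every Notch receptor, stood at 8.38 TPM in replicate 1 and 9.37 TPM in replicate 2, from 1407.18 and 1484.85 estimated counts, a ratio of 0.986 (0.916 to 1.06). Its lead transcript Rbpj-203 held 92.9% of the counts in replicate 1 and 90.9% in replicate 2. Rbpj-201, also protein-coding, held the rest, 100.24 and 135.72 counts, with posterior SDs of 43.14 and 64.32 counts. Processed pseudogene copies share sequence with Rbpj, and of these Rbpj-ps3 was given 25.82 counts in replicate 1 and 37.15 in replicate 2, and Rbpj-ps1 none, so a small part of the Rbpj estimate is uncertain.

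Hes1 (ENSMUSG00000022528, chromosome 16, plus strand, 30064384 to 30067796), a bHLH repressor and direct Notch target, stood at 20.77 TPM in replicate 1 and 22.68 TPM in replicate 2, from 862 and 894 counts. It lay above 79.8% of protein-coding genes in replicate 1 and above 80.1% in replicate 2. The ratio was 1.00 (0.912 to 1.1), the smallest difference of the 10 genes. Hes1-201, the protein-coding transcript, held 94.9% and 95.8% of the TPM, and Hes1 exceeded Rbpj by 2.48-fold and 2.42-fold.

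Between the littermates, 0 of the 10 genes differed by 1.5-fold or more in scaled counts, and 7.11% of the 15506 genes compared did. At a log2 difference of 0.32 or more, 2 of the 10, Notch1 and Notch3, were lower in replicate 1, where 15.4% of all genes compared were, and 0 of the 10 were higher, where 9.14% were. The direction was lower in replicate 1 for 7 of the 10, against 51.1% of all genes compared, but most of these differences were small: the median log2 ratio was -0.05 over the 10 genes and -0.01 over all genes compared. The direction of the small ones turned with the scaling, which shifts all genes alike: 10 of 10 were lower in replicate 1 by library size alone, where 66.1% of all genes compared were, and 5 of 10 by spike-in totals, where 43.7% were. Notch1, Notch3, Dll4, Jag1 and Jag2 were lower in replicate 1 under each of the scalings run. On the deposited TPM scale the median of all genes compared itself moved by -0.13 in log2 from the scaled counts, so TPM ratios are read against that shift.

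**Figure D3:**
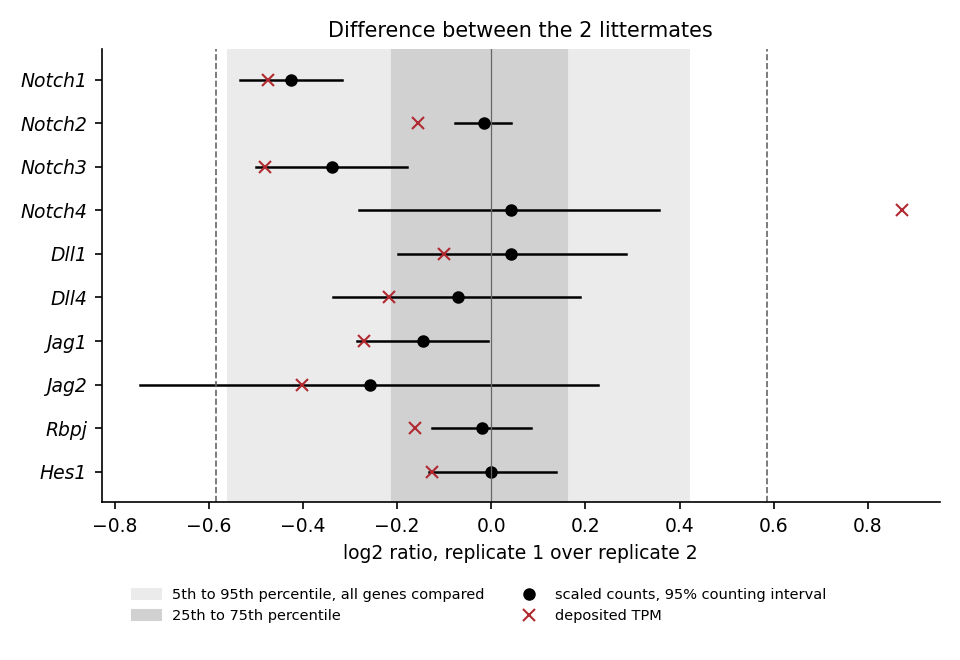
Log2 ratio of replicate 1 over replicate 2 for the 10 Notch genes. Black points are scaled counts with 95% intervals for counting error, red crosses the deposited TPM, the light and dark bands the 5th to 95th and 25th to 75th percentiles of all 15506 genes compared (-0.56 to 0.42 and -0.21 to 0.16), and dashed lines a 1.5-fold difference. All 10 black points lie inside the light band, with Notch1 at -0.42 and Notch3 at -0.34 outside the dark one, as is Jag2 at -0.25, and the red cross of Notch4 at 0.87 lies beyond the dashed line.

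Median ratios of several marker lists lay below or above 0 between the same libraries. For all genes compared the median was -0.01 and the 25th to 75th percentile range -0.21 to 0.16, which holds the arterial median. None of the endothelial, arterial, macrophage, B lineage or erythroid genes with enough counts was 1.5-fold apart, where 7.11% of all genes compared were. Of the stromal genes 1, and of the T lineage genes 3, were lower by that much in replicate 1. The TPM sums carry the shift of -0.13 in log2 given above. The 17 endothelial genes, led by Egfl7 and Plvap, were all at 1 TPM or more and summed to 443 TPM in replicate 1 and 553 TPM in replicate 2, with a median log2 ratio of -0.22. The 8 arterial genes summed to 40.7 and 49.2 TPM (median -0.17), the 9 stromal genes, led by Cxcl12 and Col3a1, to 872 and 1249 TPM (median -0.33), and the 9 macrophage genes to 630 and 936 TPM (median -0.52). The 10 B lineage genes summed to 106 and 150 TPM (median -0.30 over 9 with enough counts), led by the antigen receptor genes Cd79b and Cd79a, and the 10 T lineage genes to 19.6 and 25.5 TPM (median -0.57 over 6), with 4 of the 10 at 1 TPM or more in both libraries. The highest of these were the T cell receptor gene Trbc2 at 6.11 and 9.29 TPM and the kinase gene Lck at 6.41 and 6.78 TPM, while Cd3e stood at 0.36 and 0.50 TPM. The 6 T lineage log2 ratios were uneven, with Lck at 0.01, Cd3d at -0.01, Trbc2 at -0.46 and Cd3g at -0.69. Bcl11b and Cd4, both below 1 TPM, stood at -0.68 and -1.20. All 8 erythroid genes were instead higher in replicate 1, summing to 2709 and 2382 TPM (median 0.34), where 51.1% of all genes compared were lower. The part of these cell types in the lower Notch1 and Notch3 of replicate 1 was not tested.

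**Figure D4:**
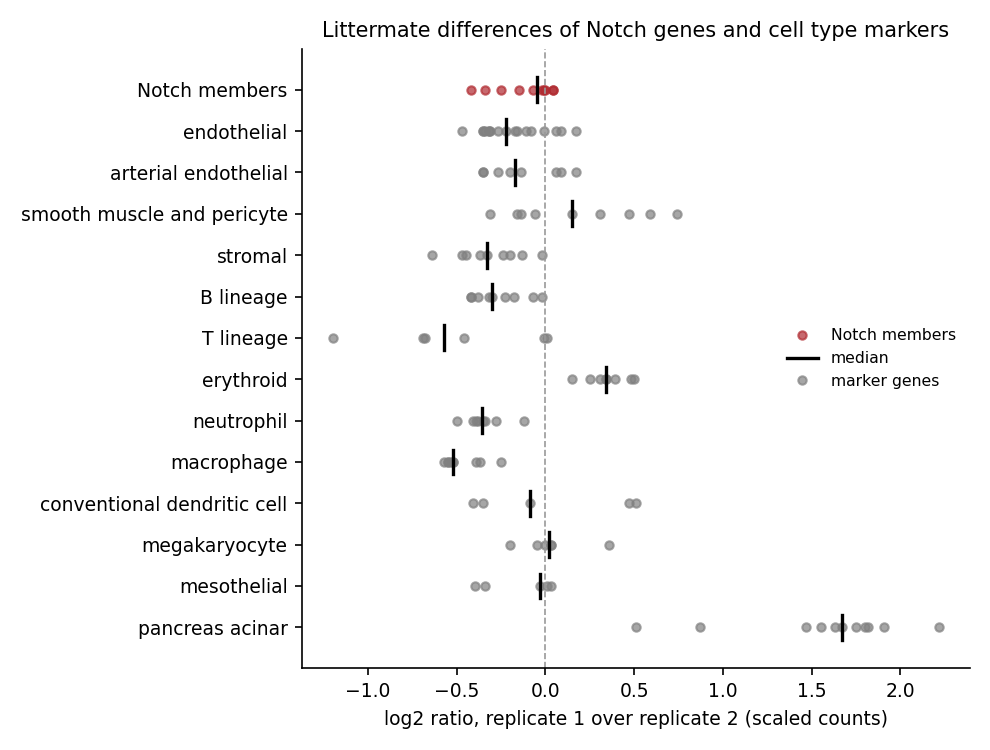
Log2 ratio of scaled counts, replicate 1 over replicate 2, for the 10 Notch genes (red) and for the genes of 13 marker lists whose count averaged 20 or more (grey), with black bars at the median of each row. The Notch genes span -0.42 to 0.04, the stromal, neutrophil, macrophage and B lineage genes all lie below 0, the erythroid genes all above 0, and the pancreas acinar genes between 0.51 and 2.22. Of all genes compared, 51.1% lie below 0.

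The other genes of the pathway were largely present as well. Of 79 further pathway genes listed by role, 78 were matched and 63 of these, 80.8%, were at 1 TPM or more in both libraries, beside the 55.6% of protein-coding genes given above. Of the 69 whose count averaged 20 or more, 45 were lower and 24 higher in replicate 1, with a median log2 ratio of -0.10. Of all genes compared, 51.1% were lower there on the same scaling, a share that turned with the scaling as given above. A difference of 1.5-fold or more was found for 3 of them: Dlk1 and Gata3 were lower in replicate 1 and Rbpjl was higher, where 4.57% and 2.54% of all genes compared were lower or higher by that much.

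The genes that modify the receptor's sugars and cut it were all present. All 5 glycosylation genes were at 1 TPM or more, namely Pofut1 and Poglut1, which add the first fucose and glucose, and the fringe genes Lfng, Mfng and Rfng, which extend the fucose and shift the receptor's response between Delta-like and Jagged ligands. Lfng stood at 12.40 TPM in replicate 1 and 15.85 TPM in replicate 2, Mfng at 11.10 and 13.58 TPM and Rfng at 10.43 and 11.99 TPM, so no fringe gene stood far above the others. All 10 cleavage genes were at 1 TPM or more too. Psenen, a gamma-secretase subunit, was the highest at 99.61 TPM in replicate 1 and 103.32 TPM in replicate 2, then Adam10 at 65.96 and 63.45 TPM and the gamma-secretase subunit gene Ncstn at 36.21 and 42.43 TPM. Adam10 thus stood above every Notch receptor and ligand in both libraries.

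Of 17 genes listed under ligand and receptor trafficking and turnover, 14 were at 1 TPM or more. The highest was Snw1, at 60.70 TPM in replicate 1 and 60.45 TPM in replicate 2, a nuclear coregulator with RBPJ although placed on this list. The endocytosis genes Epn1, at 54.41 and 53.06 TPM, and Dnm2 came next. Mib1, a ubiquitin ligase that lets ligands be endocytosed, stood at 9.58 and 10.43 TPM, and Mib2, another such ligase, at 6.39 and 9.03 TPM. Both are outside the naming rule and were picked after their values were seen. The ligand ubiquitin ligases Neurl1a and Neurl1b, and the regulator Dtx1, were below 1 TPM in both libraries. Of 19 nuclear cofactors, 18 were at 1 TPM or more, with the corepressor genes Ctbp1 at 157.13 and 160.41 TPM, Hdac1 at 111.50 and 115.05 TPM and Ncor1 at 94.35 and 101.86 TPM the highest. The one below was Rbpjl, the pancreatic relative of Rbpj, with 63 counts in replicate 1 and 35 in replicate 2. Rbpjl moved with the acinar genes, of which 11 of 11 with enough counts, itself included, were higher in replicate 1, with a median log2 ratio of 1.67. Of these 11, 10 were higher by 1.5-fold or more, where 2.54% of all genes compared were.

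**Figure D5:**
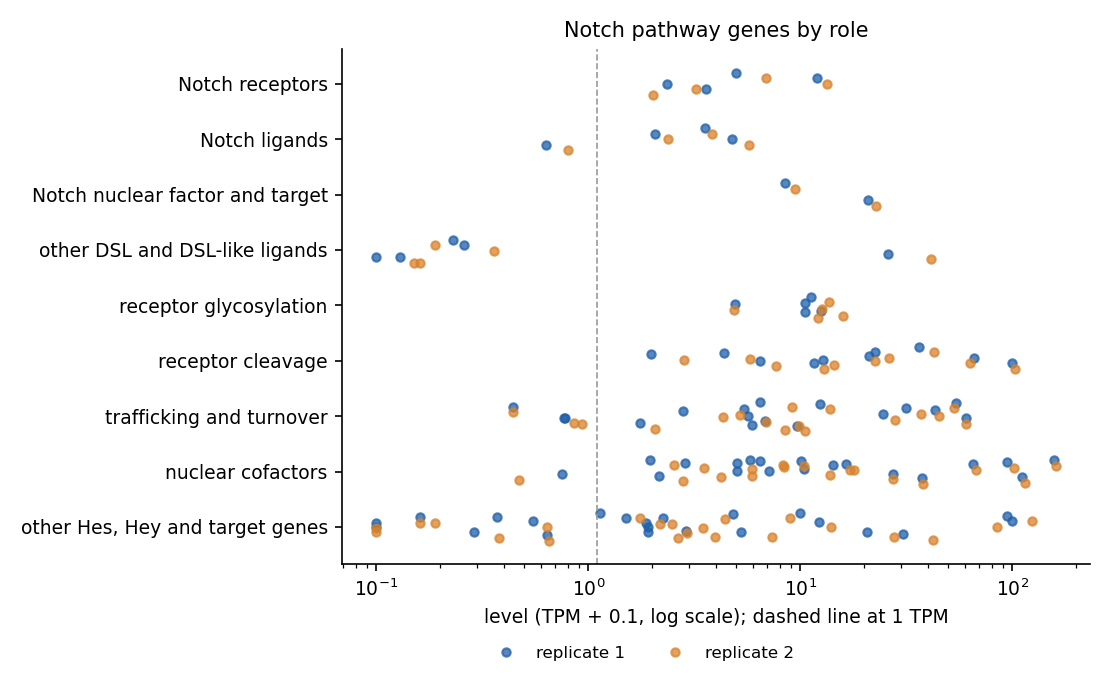
Level of each listed Notch pathway gene as TPM + 0.1 on a log axis, by role, with replicate 1 (blue) drawn above replicate 2 (orange) and a dashed line at 1 TPM. All glycosylation and cleavage genes lie right of the line, while 4 of the 5 other ligand genes matched and the lowest target genes lie left of it.

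The other ligand and target genes spanned a wide range of levels. Of the 5 further ligands and ligand-like genes matched, only Dlk1 reached 1 TPM; this secreted and membrane-bound relative of the Delta proteins, which is imprinted and common in fetal tissue, stood at 25.74 TPM in replicate 1 and 41.41 TPM in replicate 2, a log2 difference of -0.63. Dll3, a Delta-like protein that does not activate receptors on other cells, had 0 counts in replicate 1 and 1 in replicate 2. Of 22 other Hes, Hey and target genes, 15 were at 1 TPM or more in both libraries, beside 55.6% of protein-coding genes. Of the 16 with enough counts, 12 were lower in replicate 1 (median log2 ratio -0.29), where 51.1% of all genes compared were. The highest were Id3 at 94.07 and 124.03 TPM, Myc at 99.63 and 84.47 TPM and Esam at 30.53 and 42.23 TPM. Each of these is also known to be controlled by other pathways.

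Within the Hes and Hey families, Hes1 and Hes6 held most of the RNA. The 9 genes summed to 47.3 TPM in replicate 1 and 59.0 TPM in replicate 2, of which Hes1 was 43.9% and 38.4% and Hes6 43.4% and 46.9%. Hes6, which opposes HES1 and is not regarded as a direct Notch target, stood at 20.53 TPM in replicate 1 and 27.71 TPM in replicate 2. The vascular targets were much lower, with Hey1 at 2.16 and 2.38 TPM, Hey2 at 1.41 and 2.07 TPM and Heyl at 1.78 and 3.37 TPM. Hes2 and Hes3 had 0 counts in both libraries, which allows up to 3 counts, or 0.0906 CPM of the unscaled library in replicate 1 and 0.0933 CPM in replicate 2. Hes5, a target best known from neural progenitors, stood at 0.45 and 0.54 TPM. Cr2, the complement receptor gene of mature and marginal zone B cells and a Notch2 target there, stood at 0.54 TPM in replicate 1 and 0.55 TPM in replicate 2, and Gata3, a T lineage target, at 1.03 and 1.65 TPM, a log2 difference of -0.71.

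Several members overlap other annotated genes, and the sources used here do not say whether reads were counted by strand. Notch1 shares 1068 nt of exon with 0610009E02Rik and 414 nt with Gm13568, both on the opposite strand, which were given 180.63 and 163.88 counts in replicate 1 and 197.60 and 190.65 in replicate 2. Dll1, Dll4 and Notch3 overlap A930024N18Rik, Gm14207 and Gm17276, each with at most 20 counts in a library. Notch2 shares 541 nt of exon with Gm42820 on the same strand, which is not among the deposited genes, so reads there could not be assigned to it. Estimated counts were whole to within 0.005 in both libraries for 6 of the 10 genes, Notch2, Notch4, Dll4, Jag1, Jag2 and Hes1, and not for Notch1, Notch3, Dll1 and Rbpj, for which reads were divided with other features. Over all genes compared, 69.2% had whole counts in both.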

How the data were processed

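Total RNA longer than 200 nt was sequenced from 10 ng of input with spike-ins, per the labels. Per the deposited files, the authors gave gene and transcript tables on mm10 with GENCODE M4 models, in the column layout of RSEM. No source used here names the aligner, the software versions or a strand setting. In these deposited tables an expected count is an estimated count and may be a fraction of a read. The deposited TPM scale takes in every feature with its spike-ins and uses the transcript length minus 99 nt. The authors also deposited posterior means of TPM and posterior SDs. Names, transcript classes and coordinates came from GENCODE M21 (GRCm38), to which 42462 of 43346 genes matched. No column belonged to a sample of another series.

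Gene levels are TPM as deposited, and means and SDs are over 2 libraries. Presence meant 1 TPM in both. For ratios, edgeR 4.0.16 (R 4.3.3) scaled the rounded expected counts by its TMM method, with a prior count of 2 for log2 values, on genes whose count averaged 20 or more. Spike-ins, 0.0021% and 0.00233% of counts in replicates 1 and 2, and numbered features, 0.000186% and 0.000255%, stayed out of library sizes. Intervals are 95% Clopper-Pearson bounds of the count split; they and the limit of 3 counts for a gene at 0 cover counting error only. The libraries differed beyond counting noise (chi-square per degree of freedom 23.6 over 15506 genes), so they were not 1 library deposited in duplicate. The scaling was run on simulated counts with as many genes raised as lowered. That balance leaves out uneven shifts in make-up, so the run does not show that the scaling suits these libraries. Alternatives used DESeq2 1.42.0 size factors, and the rest ran in Python 3.11.15 (scipy 1.17.1, pandas 2.3.3, numpy 2.4.6; plots with matplotlib 3.10.9).

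The members and lists were chosen with earlier results of these data known. Named genes were all members, the 3 highest of each pathway list, those at 0 in both libraries or 1.5-fold apart, and of each marker list the 2 highest and those near 0; the further list genes named, Rfng, Pofut1, Hes6, Hey1, Hey2, Heyl, Pdgfrb and Tlx1 among them, were picked after their values were seen. No genes of like pattern were sought, since 2 libraries of 1 condition give no pattern.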

Additional observations from a re-analysis of the deposited data

How the results depend on the processing

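The sum of the 10 genes was 65.9 TPM as reported, 77.5 when rescaled to protein-coding genes, 89.9 without adult globins and spike-ins, and 60.7 over protein-coding transcripts, an alternative chosen after seeing the data. The Notch2 share of receptors was 52.9%, against 45.7% by posterior mean TPM, 52.9% by counts per kilobase, a move within rounding, and 61.1% over protein-coding transcripts. The Jag1 share of ligands was 44.9%, against 42.5% by posterior mean TPM and 49.3% over protein-coding transcripts. The number of members at least 1.5-fold apart was 0 as reported and 1, Notch4, by deposited TPM, and at a log2 difference of 0.32 it was 2. Leaving out 1 library gave sums from 62.4 to 69.5 TPM, Notch2 shares from 52.9% to 52.9% and Jag1 shares from 44.0% to 45.8%. The number of members present was 9 as reported, 10 at 0.5 TPM or at 10 counts, 8 over protein-coding transcripts and 7 at 2 TPM. Posterior mean TPM thus put Notch2 below the other receptor genes together. Among single values 22 of 70 levels, 9 of 90 ratios and 17 of 71 shares moved by more than their SD or counting interval. The totals for levels and shares include settings that could not move. Leaving out 1 library always shifts a mean of 2 by less than its SD, and rescaling a whole library leaves shares unchanged. No paired analysis was possible because the only group has no second group with the same replicate numbers. With 2 littermates, spread between litters was not measured, and Jag2 and Notch4, with mean counts of 74 and 164, were the members whose ratios depth limited most.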

Other observations

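The DNA word TGGGAA, the core that RBPJ binds, was searched on both strands in the 250 nt upstream of annotated starts, in promoter sequences from RefSeq on GRCm38.p6. Of the 9 members with a promoter entry, which are all but Hes1, 1, Rbpj itself, held it, against 24.1% of the 27025 genes with an entry. The longer word GTGGGAA was in 0 of the 9 and in 6.18% of genes. A match is only a match of letters in this window.

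Markers of conventional dendritic cells and of marginal zone B cells were uneven in level. The 6 conventional dendritic cell genes summed to 46.2 TPM in replicate 1 and 60.4 TPM in replicate 2, most of it Esam, which endothelial cells express as well. Zbtb46 stood at 10.69 and 12.39 TPM, Flt3 at 2.64 and 3.91 TPM and Itgax at 1.82 and 1.40 TPM, while Clec9a and Xcr1, markers of the type 1 subset, were below 1 TPM at 0.47 and 0.36 TPM and at 0.10 and 0.14 TPM. Of the 5 marginal zone B genes, Cd9 and Cd1d1 were above 1 TPM in both libraries, and Cr2 and Dtx1 were below it in both. Which cell types these reads came from was not tested, for Zbtb46 and Cd9 as for Esam.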
